A study of Mus musculus with 24 samples.

Results

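The baseline described here is the DNA methylome of the dentate gyrus in young mice kept in standard cages (Young STD). It consisted of 5 mice, those with this label among the 19 mice in the deposited percentage table, out of 24 samples described for the study. The mice were female C57BL/6JRj animals aged 1.5 months in standard housing, and the labels gave no transgene, mutation or drug treatment. The study micro-dissected the dentate gyrus from individual mice and used reduced representation bisulfite sequencing (RRBS), in which a restriction enzyme releases CpG-rich fragments and bisulfite conversion distinguishes methylated from unmethylated cytosines. Micro-dissected tissue holds granule neurons together with precursor cells, glia and vessel cells, so each value is an average over these cells. The members were taken by their group label alone, and the methylation values of other groups were not used. The coverage of the other groups entered through the authors' filter on cytosines and in 1 alternative choice of CpGs.

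In mammalian genomes, methylation is carried mainly by cytosines that precede a guanine (CpG) and is copied at replication by the methyltransferase Dnmt1 after Dnmt3a and Dnmt3b have set it. Most CpGs outside regulatory regions are methylated, whereas CpG islands at promoters are usually free of it. Known exceptions are promoters on the inactive X chromosome of females, imprinted regions that carry methylation on the allele from one parent, and a set of germline genes that are silenced in body tissues through promoter methylation. The dentate gyrus is the hippocampal region in which granule neurons continue to be born after birth.

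To show what was read, 1 stretch of 160 bases outside annotated exons is given for each of 5 kinds of promoter described below. Each stretch is the one with the most measured CpGs among the genes of its group, on GRCm38 (mm10) and written 5′ to 3′ on the strand of the gene. Germline genes were eligible only with a methylated promoter, and imprinted and other X-linked genes only with an intermediate one (classes defined below). The levels at Zfp42, Airn and Nhsl2 therefore follow in part from this choice. Capitals mark the CpGs that had a value in every mouse. Eif2s3x encodes a subunit of a translation initiation factor and is a gene that escapes X inactivation (chrX:94213084-94213243, minus strand, -534 to -375 relative to its start). Nhsl2 is an X-linked gene of the intermediate class (chrX:101849848-101850007, plus strand, 463 to 622 from its start). Zfp42 is a marker of pluripotent cells (chr8:43307415-43307574, minus strand, -594 to -435). Airn is the imprinted noncoding RNA that runs antisense to Igf2r (chr17:12741575-12741734, plus strand, 264 to 423). Eno2 encodes neuron-specific enolase (chr6:124769071-124769230, minus strand, 443 to 602).
Eif2s3x: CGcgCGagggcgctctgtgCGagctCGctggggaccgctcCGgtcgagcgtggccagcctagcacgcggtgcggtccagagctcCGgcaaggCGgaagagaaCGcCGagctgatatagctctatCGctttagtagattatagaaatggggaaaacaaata
Nhsl2: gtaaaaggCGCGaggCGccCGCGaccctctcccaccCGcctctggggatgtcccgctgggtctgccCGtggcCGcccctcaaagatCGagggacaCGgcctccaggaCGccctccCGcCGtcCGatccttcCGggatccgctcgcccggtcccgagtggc
Zfp42: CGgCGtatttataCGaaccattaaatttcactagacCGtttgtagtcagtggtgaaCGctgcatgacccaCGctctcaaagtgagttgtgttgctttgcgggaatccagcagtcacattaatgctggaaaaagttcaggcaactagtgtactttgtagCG
Airn: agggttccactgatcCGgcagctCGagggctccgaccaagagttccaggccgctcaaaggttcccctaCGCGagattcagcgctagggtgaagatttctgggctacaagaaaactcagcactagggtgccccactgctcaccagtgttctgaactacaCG
Eno2: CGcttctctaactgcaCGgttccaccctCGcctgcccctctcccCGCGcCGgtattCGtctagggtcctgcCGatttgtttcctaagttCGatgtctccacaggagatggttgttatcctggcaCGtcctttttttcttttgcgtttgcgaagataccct

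The Eif2s3x stretch holds 18 CpGs, of which 10 were measured, and their mean methylation was 0.395% ± 0.332 (SD, n = 5), with 2.24% at the highest site. The 10 measured CpGs of Eno2, 12 in the stretch in all, averaged 2.11% ± 1.39 (SD, n = 5). At Zfp42, 7 of 8 CpGs were measured and averaged 87.1% ± 9.29 (SD, n = 5). Eif2s3x and Eno2 lay near the low end of the scale in all mice, whereas Zfp42 ranged from 75.2% to 100% over mice. At Nhsl2, 15 of 20 CpGs were measured, with 40.1%, 25.7%, 47.2%, 67.1% and 34.6% in mice 1 to 5. The means of these single sites ranged from 13.3% to 63.3%. At Airn, 5 of 8 CpGs were measured, and their site means all lay between 42.0% and 45.9%, although the mice gave 34.9%, 33.5%, 61.4%, 84.0% and 8.24%. This stretch differed widely between mice.

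The table listed 762162 cytosines in CpG context at 692906 CpG positions, 3.17% of the CpG positions of the genome, and 33.3% of the listed cytosines lay in a recognition site of the form CCGG. Each Young STD mouse had a value at 552472 to 725449 cytosines (72.5% to 95.2%). The table holds no read numbers, so the depth behind each percentage is unknown beyond the minimum of 10 reads set by the study, and single values carry no interval here. The levels below are for the 280109 CpGs (36.8%) measured in all 5 mice, called complete CpGs. They differ from the rest. Complete CpGs had on average 9.33 CpGs within 100 bases and a mean methylation of 38.8%, whereas CpGs with values in 3 mice had 14.6 CpGs within that distance and a mean of 21.9%. Promoters held 40.2% of complete CpGs and 59.2% of those measured in 3 mice. In each feature, complete CpGs were the more methylated, with 8.84% against 4.46% in promoters and 62.5% against 53.3% in intergenic DNA.

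Mean methylation over complete CpGs was 37.9%, 38.1%, 38.02%, 39.9% and 40.1% in mice 1 to 5, or 38.8% ± 1.09 (SD, n = 5). Library numbers in the labels fall into a series starting with 27 (mice 1 to 3) and a series starting with 37 (mice 4 and 5). The 2 mice of series 37 lay 1.98 percentage points above the 3 mice of series 27, without overlap (exact permutation test, two-sided, p = 0.1, the smallest p this design allows). Values of exactly 0% made up 46.5% of the complete CpGs in series 37 and 39.4% in series 27, and values of exactly 100% made up 24.5% and 15.8%. The series moves with the levels below and what it contributes was not tested. On the mitochondrial genome, which is commonly used as a check of conversion, the mice averaged 0.344% to 2.57% at 15 to 25 CpGs.

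To compare genomic features, each CpG was assigned to a promoter (within 1000 bases of any annotated transcription start), otherwise to an exon, an intron or intergenic DNA. Promoter CpGs were the least methylated, with 8.60%, 8.58%, 8.58%, 9.16% and 9.28% in mice 1 to 5 and a mean of 8.84% ± 0.348 (SD, n = 5, 112668 CpGs). Exons averaged 52.9% ± 1.41 (19932 CpGs), introns 56.7% ± 1.73 (68620 CpGs) and intergenic CpGs 62.5% ± 1.50 (78889 CpGs). The ranges of the 4 features over mice, from 51.7% to 54.6% in exons, 55.2% to 58.6% in introns and 61.3% to 64.2% in intergenic DNA, did not overlap. Within each mouse, the difference between promoters and intergenic CpGs lay between -55.0 and -52.7 points, with a mean of -53.7 ± 1.16 (SD) and promoters lower in 5 of 5 mice (two-sided exact sign-flip permutation test, p = 0.0625). Exons were below introns in 5 of 5 mice, with a mean difference of -3.78 ± 0.324 points (exact sign-flip permutation test, p = 0.0625). With 5 mice, 0.0625 is the smallest p this test can give, so no difference could pass 0.05. Both differences were larger than the spread between mice. Levels in all features were higher in series 37, for example 64.2% against 61.4% in intergenic DNA.

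**Figure D1:**
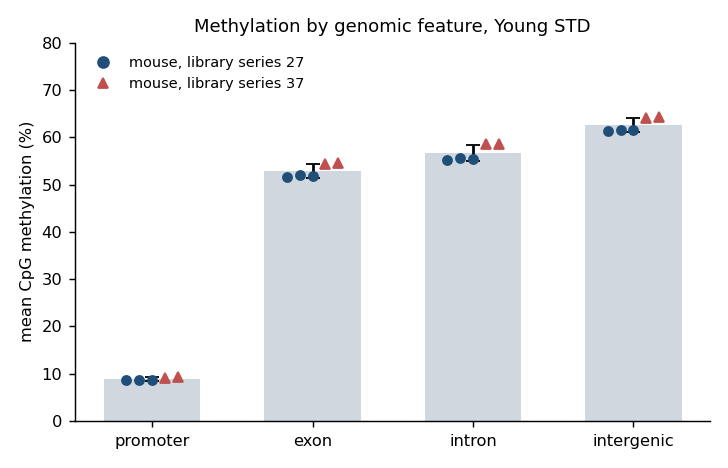
Mean CpG methylation (%, y axis) by genomic feature (x axis) over complete CpGs. Bars are means of 5 Young STD mice with SD, points are single mice marked by library series. Promoters lie at 8.84% and the other features between 52.9% and 62.5%, and both mice of series 37 are the highest in every feature.

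Methylation was bimodal in each feature. Within a mouse, 44.7% ± 2.47 (SD, n = 5) of complete CpGs had values under 5% and 21.4% ± 4.19 had values of at least 95%, whereas the bin from 45% to 50% held 1.20% ± 0.0356. In promoters, 80.9% ± 2.44 of CpGs were under 5% and 3.62% ± 0.900 at 95% or above. The upper peak was the taller one in intergenic DNA, with 36.2% ± 6.70 of CpGs against 17.9% ± 2.23 in the lowest bin. Exons had 31.1% ± 5.92 in the upper and 28.4% ± 2.71 in the lower bin, which differ by less than their SDs.

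**Figure D2:**
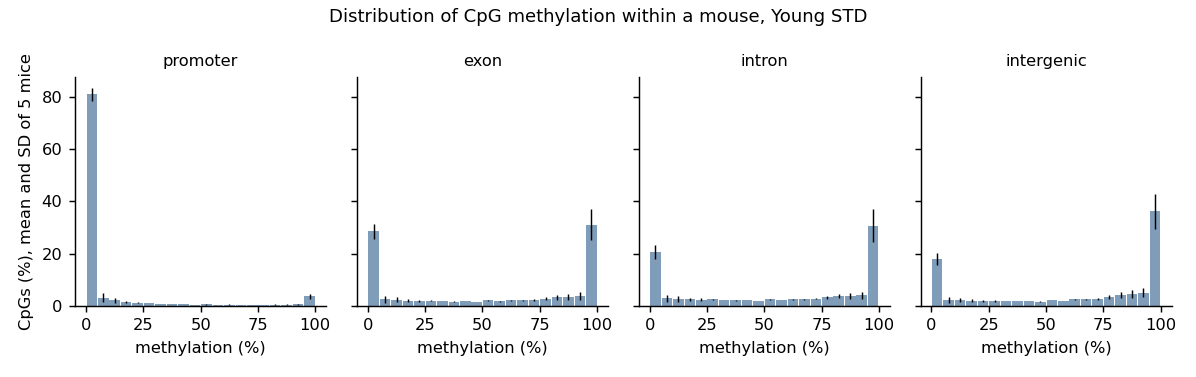
Share of CpGs (%, y axis) by methylation level in bins of 5 points (x axis) for each genomic feature, as mean and SD of 5 Young STD mice. Every feature shows a peak at each end, and in promoters the low one (80.9% of CpGs) far exceeds the high one (3.62%).

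Averaged over mice, CpGs at or below 20% were called unmethylated, those at or above 80% methylated and the others intermediate. By these limits 51.0% of complete CpGs were unmethylated, 19.9% intermediate and 29.1% methylated. Unmethylated CpGs made up 88.8% of promoter, 34.0% of exonic, 26.6% of intronic and 22.7% of intergenic CpGs, and methylated CpGs 4.71%, 41.1%, 41.7% and 49.9%. Introns had the largest share of intermediate CpGs, 31.7%. In promoters, 52.6% of CpGs read 0% in all 5 mice, compared to 6.20% in intergenic DNA. Conversely, 100% in all mice was found at 0.704% of promoter and 7.47% of intergenic CpGs.

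The classes differed in how steady they were across mice. The median SD over mice was 0.396 points for unmethylated CpGs, and 80.6% of them were at or below 20% in every mouse. For methylated CpGs the median SD was 7.87 points, and 54.5% were at or above 80% in every mouse. Of the 55687 intermediate CpGs, only 13.4% lay between 20% and 80% in all 5 mice, and the median SD was 22.4 points. At 20.7% of them at least 1 mouse was at or below 20% while another was at or above 80%. Among the values of intermediate CpGs, 16.9% were exactly 0% or 100%, from 8.01% in the lowest to 29.0% in the highest mouse. At most intermediate CpGs, therefore, at least 1 mouse lay outside the intermediate range.

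Both strands of a CpG are read from separate molecules. At 26982 to 62234 CpGs per mouse with values on both strands, the strands fell into the same class at 84.0% to 87.7% and into opposite classes at 0.349% to 1.70%. The 2 mice of series 37 had the higher shares of opposite strands, 1.70% and 1.44%, against at most 0.505% in the others. Neighbouring CpGs on the same strand were also alike. At 2 to 10 bases, 91.7% ± 0.451 (SD, n = 5) of pairs shared a class within a mouse, and at 1001 to 2000 bases 75.6% ± 1.98 did. The Pearson correlation across pairs, which share a library and are not independent replicates, fell from between 0.909 and 0.947 in single mice (82286 pairs) to between 0.377 and 0.449 (91851 pairs). Pairs at short distances often lie on the same read.

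Methylation fell with local CpG density. CpGs with no other CpG within 100 bases averaged 74.4% ± 1.11 (SD, n = 5, 10145 CpGs), and those in windows of at least 21 CpGs averaged 1.92% ± 0.0680 (26112 CpGs). At equal density promoters were lower than the other features up to 16 to 20 CpGs. With 3 to 4 CpGs in the window, promoter CpGs averaged 37.1% ± 1.39, introns 63.7% ± 1.92, intergenic CpGs 69.2% ± 1.80 and exons 69.3% ± 1.90. With 11 to 15 CpGs, the means were 4.24% ± 0.161 in promoters, 24.6% ± 0.854 in introns, 37.1% ± 1.00 in exons and 43.2% ± 0.827 in intergenic DNA. The order of exons and introns also depended on density. Exons lay below introns over all complete CpGs but above them in the means of every density bin from 1 to at least 21 CpGs, for example 62.2% ± 1.71 against 49.6% ± 1.71 at 7 to 8 CpGs. Exonic CpGs had a median of 7 CpGs within 100 bases and intronic CpGs a median of 4. With 1 CpG in the window the difference, 72.1% against 71.8%, was within the SDs. In the densest bin promoters, introns and intergenic CpGs were close together, at 1.70% ± 0.0405, 2.15% ± 0.296 and 1.83% ± 0.525, and exons averaged 6.66% ± 1.09.

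**Figure D3:**
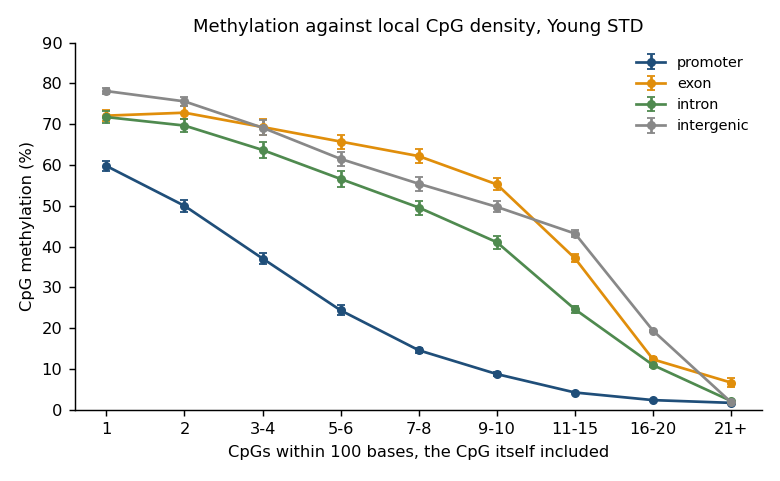
CpG methylation (%, y axis) against the number of CpGs within 100 bases (x axis), as mean and SD of 5 Young STD mice for each genomic feature. All 4 lines are lower at the densest than at the sparsest CpGs, promoters lie lowest up to 16 to 20 CpGs, and exons lie above introns in each bin.

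Around the principal starts of protein-coding genes, methylation formed a trough. Over 12579 genes with complete CpGs within 5000 bases, the lowest 200-base bin was the one that begins at the start, with 3.11% ± 0.0932 (SD, n = 5), against 38.1% ± 1.36 at 2000 to 5000 bases. The middle between these levels, 20.6%, was reached 1000 bases upstream and 1800 bases downstream, so that the trough reached further into the gene. Promoters were grouped by sequence into CpG-dense, CpG-medium and CpG-sparse ones. A dense promoter has, within 1000 bases of its start, a 500-base window with a ratio of observed to expected CpGs over 0.75 and a GC content over 55%, and in a sparse promoter no window exceeds 0.48. Dense promoters reached 1.80% ± 0.0812 just downstream of the start and their middle level at 1200 bases upstream and 1800 downstream. Medium promoters had a shallower and narrower trough, with 6.77% ± 0.555 just upstream of the start and the middle level at 600 and 1400 bases. Sparse promoters had a dip rather than a deep trough, from 65.1% ± 2.88 at -800 to -601 to 38.5% ± 0.929 in the bin at the start (219 CpGs) and up to 52.7% ± 1.35 at 400 to 599. Their flank averaged 49.7% ± 1.30, and their lowest bin, 33.4% ± 2.04, lay 2400 to 2599 bases into the gene.

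**Figure D4:**
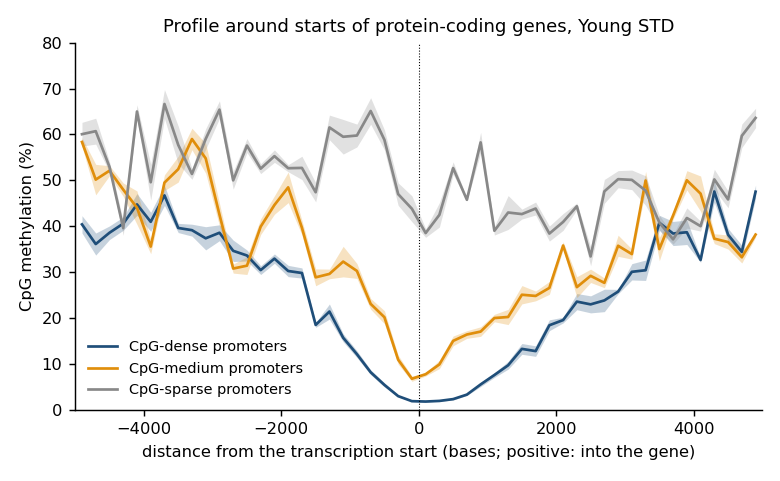
CpG methylation (%, y axis) in 200-base bins by distance from the principal transcription start of protein-coding genes (x axis, bases), as mean (line) and SD (band) of 5 Young STD mice for 3 promoter classes. Dense promoters fall to 1.80% and medium promoters to 6.77% at the start, while sparse promoters dip to 38.5%.

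For single genes, the promoter value was the mean over complete CpGs within 1000 bases of the principal start, for genes with at least 5 such CpGs. This gave a value for 7366 of 21864 protein-coding genes (33.7%), with a median of 1.29%. Of these, 7027 (95.4%) were unmethylated, 291 intermediate and 48 (0.652%) methylated, and 6432 (87.3%) were at or below 5%. The promoters of 216 genes read 0% in every mouse, on up to 24 CpGs. In 7033 genes (95.5%) all 5 mice fell into the class of the mean. Among dense promoters 6116 were unmethylated, 186 intermediate and 8 methylated, and among medium promoters the numbers were 886, 96 and 32. Sparse promoters were almost out of reach, since 42 of 6872 (0.611%) had a value, against 58.1% of dense ones. Of these 42, 25 were unmethylated, 9 intermediate and 8 methylated. Values just inside and outside a limit carry little weight, as 41 genes lay within 2 points below the 20% limit and 23 within 2 points above it, with 2 genes on either side of the 80% limit.

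Among other gene types, promoters of bidirectional noncoding RNAs were unmethylated at all 101 genes with a value, and those of antisense RNAs at 90.1% of 546. Long intergenic noncoding RNAs had 83.7% unmethylated and 4.41% methylated promoters (454 genes). Processed pseudogenes, copies of spliced RNAs that were inserted elsewhere in the genome, showed the opposite pattern, with 63.2% methylated and 18.97% unmethylated of 174 and a median of 89.2%.

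Methylated promoters were rare among dense ones. The 8 genes were Hist1h2ba and Hist1h2aa, which encode histones of the testis and share the same 21 CpGs, Tex14, which is needed for the bridges between germ cells, Slc25a31, a carrier for ADP and ATP of the testis, D1Pas1, a retrocopy of the helicase gene Ddx3x active in spermatocytes, Ccin, which encodes the sperm head protein calicin, Sfi1, which encodes a centrin-binding protein, and Prr23a3. All 8 genes are named because they make up this class. Tex14 and Ccin, with 5 CpGs each, are named after their values were seen. The Hist1h2ba and Hist1h2aa promoter had 97.2%, 96.9%, 95.9%, 95.6% and 91.8% in mice 1 to 5. Prr23a3 had the lowest mean of the 8, 89.0% ± 6.85 (SD, n = 5, 11 CpGs). The other means were 95.4% for Tex14, 93.1% for Slc25a31, 93.0% for D1Pas1, 91.2% for Ccin and 90.8% for Sfi1. In 7 of the 8 genes every mouse was at or above 80%, the exception being Prr23a3, where mouse 3 had 78.9%. Prr23a3 has a close paralog in Prr23a1, whose 11 CpGs averaged 75.1% ± 8.38, and reads from such copies could have been assigned to either.

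Of the dense autosomal promoters with at least 10 CpGs, the next highest were those of 3110070M22Rik and Tmem267, which face each other within 1000 bases. They averaged 67.5% ± 8.13 (SD, n = 5, 40 CpGs) and 64.4% ± 7.17 (37 CpGs) over CpGs that they largely share. Both were lower in series 37, where 3110070M22Rik had 55.1% and 63.2%, than in series 27, where it had 72.1% to 74.1%. This order is the opposite of that of the global level. Among the 40 methylated genes with medium or sparse promoters, named here after their values were seen, were Tuba3b at 98.7%, Actbl2 at 98.1%, the trace amine receptor gene Taar4 at 97.4%, the spermatid linker histone gene H1fnt at 94.7% and the X-linked Rhox6 at 95.3%, Rhox9 at 93.5% and Rhox2d at 93.9%, homeobox genes of reproductive tissues. All mice were at or above 80% in 23 of the 32 medium and 5 of the 8 sparse promoters.

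Unmethylated sparse promoters were described by the 5 lowest. Grn, which encodes the lysosomal growth factor progranulin, read 0% in all mice on 6 CpGs. Ndrg4, a gene with high expression in brain, averaged 0.515% ± 0.848 (SD, n = 5), and Dpp7, a lysosomal peptidase gene, 0.833% ± 1.86. Rnf112, a neural ubiquitin ligase gene, averaged 0.962% ± 2.03, and Agtr1b, an angiotensin II receptor gene, 2.86% ± 2.34. At the other end of coverage, the unmethylated promoters with the most CpGs were those of Map7 with 58 CpGs, Creb5 and Phf13 with 54 each, Otud4 with 50 and 9130023H24Rik with 48. Their means lay between 0.549% and 1.38%, and no mouse exceeded 2.39% in any of them.

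To examine X-linked promoters in these female mice, in which 1 X chromosome per cell is inactivated at random, the dense promoters of the X were compared with those of the autosomes. The 126 X-linked promoters averaged 26.2%, 24.9%, 26.1%, 30.7% and 31.03% in mice 1 to 5, or 27.8% ± 2.87 (SD). The 6184 autosomal promoters averaged 2.32% to 2.54%, or 2.40% ± 0.0891. No mouse came near an overlap, and the difference was 25.4 ± 2.79 points in 5 of 5 mice (two-sided exact sign-flip permutation test, p = 0.0625, the smallest it can give). Of the X-linked promoters 106 (84.1%) were intermediate and 20 unmethylated, with none methylated at 126 genes, while 98.6% of autosomal ones were unmethylated. The quartiles of the X-linked promoters were 22.3% and 33.1%, and 7 of 126 lay between 40% and 60%, with 2 above 60%.

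The X-linked level was also elevated outside the promoter core. Around dense promoters it rose from 26.2% ± 1.72 within 250 bases of the start to 54.1% ± 2.30 at 2000 to 5000 bases, while autosomal CpGs rose from 1.48% ± 0.0550 to 33.5% ± 1.41. Over all complete CpGs of a feature, the X was above the autosomes in promoters (37.3% ± 3.30 against 8.15% ± 0.279), exons (78.4% ± 2.31 against 52.4% ± 1.40), introns (68.5% ± 1.50 against 56.4% ± 1.74) and intergenic DNA (79.0% ± 1.15 against 61.7% ± 1.53). Among intermediate promoters, the means of X-linked ones varied more between mice. The median SD over mice was 12.1 points for the 106 X-linked and 7.30 points for the 80 autosomal ones. Of the 106, 36 were above 20% in every mouse, against 43 of the 80. The autosomal SDs ran from 0 at Spag4, which had 25% in every mouse, to 33.5 at Nnat. A promoter that mixes steadily low and steadily high CpGs has an intermediate mean and a small SD. Whether single CpGs of these promoters were intermediate was not examined, so both groups may not be comparable in steadiness.

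The promoters with the largest spread over mice, among those with at least 10 CpGs, were mostly X-linked. Tspan6, which encodes a tetraspanin, had 73.4%, 16.1%, 31.7%, 7.04% and 67.6% in mice 1 to 5. Rbm3, a cold-inducible RNA-binding protein gene, had 27.6%, 8.57%, 35.5%, 9.22% and 75.6%. Rtl8c, a gene derived from a retrotransposon, averaged 45.7% ± 19.5 (SD, n = 5). The autosomal imprinted gene Mcts2 was also among them. The high mice were not the same from gene to gene, since mouse 1 was highest for Tspan6 and mouse 5 for Rbm3 and Rtl8c, and for Rtl8c both series 37 mice were highest.

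Genes listed as escaping X inactivation, that is, genes expressed from both X chromosomes, lay at the low end. Of 9 listed genes 5 had a value and all 5 were unmethylated, beside 20 of all 126 dense X-linked promoters (15.9%). Kdm6a, a histone demethylase gene, averaged 0.692% ± 0.830 (SD, n = 5, 27 CpGs), Jpx, a noncoding RNA gene near Xist, 0.808% ± 0.797, Eif2s3x 0.908% ± 1.10 and Pbdc1 3.27% ± 3.88. Kdm5c, another histone demethylase gene, had 0.714%, 1.66%, 0.735%, 40.3% and 2.98% in mice 1 to 5 on 8 CpGs, so that its mean of 9.28% ± 17.4 rests on mouse 4. On its 51 CpGs measured in at least 3 mice, mouse 4 had 16.8% and the mean was 3.63%. Of the 20 dense X-linked promoters in the unmethylated class, the lowest outside the list was Ubqln2, a ubiquitin-binding protein gene named after its values were seen, at 4.95% ± 10.1, which read 0% in 3 mice and 23.0% in mouse 4. The highest were Pdha1 at 19.98% and Ercc6l at 19.99%.

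**Figure D5:**
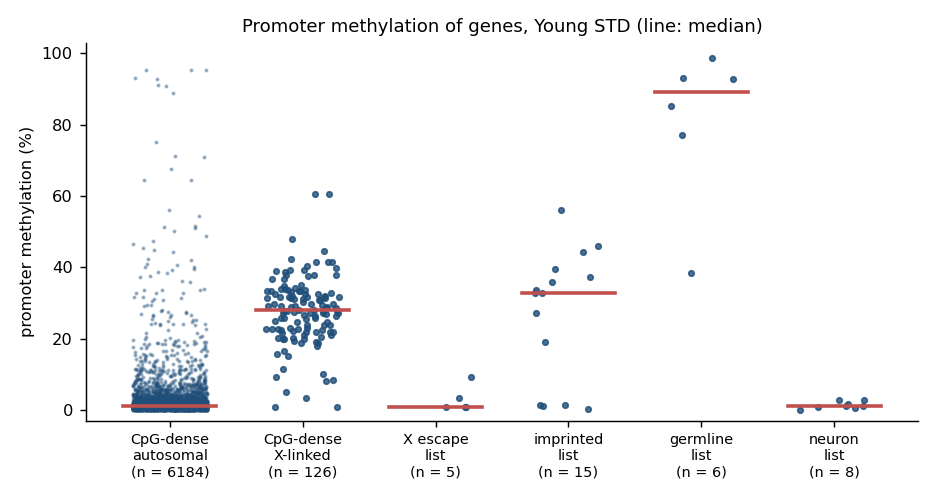
Promoter methylation (%, y axis) of single genes as mean over 5 Young STD mice, for CpG-dense protein-coding promoters on autosomes and the X and for 4 gene lists (x axis), with red lines at the medians. Autosomal promoters gather near 0% (median 1.19%), X-linked promoters around 27.9%, and the germline list near the top.

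Imprinted genes carry methylation on 1 parental allele at their control regions. Of 30 listed genes 15 had a value, 10 of them intermediate, 5 unmethylated and 0 methylated, with a median of 32.9%, beside 3.95% intermediate among all protein-coding promoters. Airn had 42.9%, 41.8%, 51.3%, 52.4% and 41.7% in mice 1 to 5, or 46.0% ± 5.36 (SD) over 10 CpGs. Gnas, which encodes a G protein subunit, had 34.5%, 31.4%, 41.4%, 37.4% and 42.0%, or 37.3% ± 4.53. Zrsr1, a retrocopy of a splicing factor gene, averaged 56.0% ± 9.34 over 25 CpGs and was the highest of the list. The means of these 3 promoters lay between 31.4% and 67.2% in every mouse. For Airn this held for the mean over the whole window only, since the stretch shown above, with 5 of its 10 CpGs, ran from 8.24% to 84.0% over mice, and a window of 500 bases gave 45.2% ± 22.6.

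Other imprinted promoters differed more between mice. Nnat, which encodes the brain protein neuronatin, had 11.2%, 20.2%, 4.10%, 77.0% and 66.4% in mice 1 to 5, with the 2 mice of series 37 highest. Over CpGs measured in at least 3 mice, Nnat had 34.5% in mouse 2 and 31.5% in mouse 4, so the series overlapped. Nap1l5 had 14.5%, 36.3%, 65.2%, 64.1% and 40.8%. Peg10 and Sgce share 1 bidirectional promoter and its 8 CpGs, with 39.9%, 31.04%, 27.4%, 0% and 66.0%. Mcts2, a retrocopy gene, had 27.6% to 37.3% in mice 1 to 4 and 71.7% in mouse 5, but over CpGs measured in at least 3 mice mouse 4 was also high, at 62.4%. Peg13 averaged 33.5% ± 11.1 (SD, n = 5) and Peg12 27.2% ± 12.2 on 5 CpGs, while 48 CpGs of Peg12 measured in at least 3 mice gave 17.9%, in the unmethylated class. Plagl1, a zinc finger gene, fell just under the limit of the unmethylated class at 19.06% ± 13.1, but had 28.8% without mouse 3 and 34.5% over CpGs measured in at least 3 mice. The other 4 unmethylated genes, Zdbf2, Rasgrf1, Grb10 and Inpp5f, had means of 0.286% to 1.53% at their principal starts. With CpGs measured in at least 3 mice, 22 imprinted genes had a value, of which 15 were intermediate, 7 unmethylated and 0 methylated, beside 5.23% intermediate among all protein-coding genes.

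Of 35 listed germline and pluripotency genes, 6 had a value, of which 4 were methylated, 2 intermediate and 0 unmethylated, beside 0.652% methylated among all protein-coding promoters. Tuba3b, a testis tubulin gene with the near-identical copy Tuba3a, had 97.1% to 100% in the 5 mice, and Slc25a31 and D1Pas1 were described above. Zfp42, whose sequence is shown above, had 84.0%, 85.1%, 76.3%, 84.9% and 95.6%. Mov10l1, a helicase gene of the piRNA pathway, averaged 77.2% ± 13.9 (SD, n = 5, 5 CpGs), with 85.7% to 88.9% in series 27 and 58.7% and 65.9% in series 37, but over CpGs measured in at least 3 mice its mouse 3 of series 27 had 65.5%, level with 65.6% in mouse 4. Dazl, an RNA-binding protein gene of germ cells, stood at 38.4% ± 2.06 on 10 CpGs, with all mice between 35.2% and 40.9%, but its CpGs were unlike, since their median gave 2.94%, and CpGs measured in at least 3 mice gave 52.6%. When CpGs measured in at least 3 mice were used, 13 germline genes had a value, of which 10 were methylated, 2 intermediate and 1 unmethylated, beside 1.20% methylated among all 12208 protein-coding genes with a value.

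Promoters of genes for general cell functions were unmethylated at 11 of 11 listed genes with a value, near the 95.4% of all protein-coding promoters. Rps18, a ribosomal protein gene, was the highest at 3.49% ± 4.22 (SD, n = 5), followed by Eef2, a translation elongation factor gene, at 3.01% ± 3.42, and B2m, the light chain of MHC class I, the lowest at 0.0484% ± 0.108. Genes of developmental transcription factors, most of which specify other tissues, were likewise unmethylated at 17 of 17 genes with a value, 16 of them dense, beside 96.9% of all dense promoters. Their median was 3.17%, beside 1.29% over all protein-coding promoters. The highest were the mesoderm gene T at 13.6% ± 5.39 and Hoxc10, a gene of posterior body regions, at 9.54% ± 4.47. The lowest were Hoxa5 at 0.328% ± 0.450 and Foxa1 at 0.700% ± 0.740. With CpGs measured in at least 3 mice, 28 of 28 were unmethylated, beside 93.6% of all protein-coding genes, and T, on 38 CpGs, had 4.65% and was no longer the highest, while Hoxa5 had 2.38%.

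Because the tissue label cannot be checked by expression here, promoters of marker genes of the cell types in the dentate gyrus were described. All 8 neuronal genes with a value were unmethylated, from Rbfox3, which encodes the neuronal nuclear protein NeuN and read 0% in all mice on 6 CpGs, and Tubb3 at 0.684% ± 0.954 (SD, n = 5), to Nefm, a neurofilament gene, at 2.91% ± 1.44 and Eno2 at 2.92% ± 1.59. All 6 progenitor genes with a value were unmethylated as well, with Eomes, a factor of intermediate progenitors, at 1.69% ± 1.88 and Hes5, a Notch target, at 1.20% ± 0.774 as the highest and Sox4 at 0.540% and Emx2 at 0.829% as the lowest. The same held for the 3 oligodendrocyte genes and for the 2 endothelial genes Flt1 (1.02%) and Cldn5 (0.223%). Of the oligodendrocyte genes, Cldn11, a tight junction gene of myelin, was highest at 8.05% ± 2.31 and Olig1 lowest at 0.159%. Over CpGs measured in at least 3 mice, however, Sox10 was intermediate at 54.9% on 6 CpGs, running from 0% in mouse 4 to 80% in mouse 5. A share of 95.4% unmethylated promoters over all protein-coding genes means that these counts do not set neurons apart from the other cell types. Among 6 astrocyte genes, Aldh1l1, a folate enzyme gene with a CpG-sparse promoter, was intermediate at 36.7% ± 11.1, with 19.9%, 48.4%, 34.3%, 36.1% and 45.0% in mice 1 to 5, and the other 5 were unmethylated, from Glul at 0.306% and Gja1 at 0.368% to Sox9 at 2.43%.

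Markers of microglia (0 of 9 genes) and of other organs (0 of 26 genes) had no value on complete CpGs. With CpGs measured in at least 3 mice, values were obtained for the microglia gene Tmem119, at 13.0%, and the muscle actin gene Acta1, at 27.3%, which leaves the promoters of cell-type genes with few CpGs almost unread by this assay.

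Short sequence motifs were counted from 250 bases before to 50 after the start, on both strands, without regard to overlap with other motifs. Among autosomal dense promoters the letters CCGGAA, the core bound by ETS factors, were present in 31.7% of 6096 unmethylated and 15% of 80 intermediate promoters, beside 18.1% of all 21864 annotated protein-coding promoters. The 8 methylated dense promoters did not follow this order, with 37.5%, nor did the 25 methylated medium ones, with 32% against 23.5% of unmethylated medium promoters. Sparse promoters had the reverse order, with 12% of 25 unmethylated and 22.2% of 9 intermediate ones. CCGGAA contains the recognition site CCGG, around which the assay reads CpGs, so promoters with a value are not a neutral sample for this motif. The shares over all annotated promoters include those without a value and are not a matched background. The GC box GGGCGG was present in 71.8% and 60%, beside 45.4% of all. The E-box CACGTG was present in 10.1% and 10%. The GC content of these bases was 63.6% in unmethylated and 60.7% in intermediate promoters, so promoters of both classes also differed in composition.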

How the data were processed

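RRBS libraries from the dentate gyrus of single mice were sequenced by the authors. Per the labels, reads were processed with Trim Galore 0.4.0, cutadapt 1.8.1, Bismark 0.16.1 and methylKit 1.5.2 on mm10. The deposited values are the percent of reads at a cytosine that were methylated, with a missing value under 10 reads, and the authors kept cytosines covered in at least 3 mice per group. No read numbers were used, as the table gives percentages only, so differences in depth, fragment choice and duplicate reads between libraries pass into the values. Of 762182 cytosines, 20 were not in a CpG and were left out. The number of columns matching no sample was 0.

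Each mouse was 1 replicate and groups came from the labels. Values were read as deposited. Features were taken from GENCODE M21 on GRCm38, which is mm10, with 55450 genes. The principal start was the APPRIS principal transcript (21830 of 21864 protein-coding genes), otherwise the longest coding one. Sequences came from the GRCm38 genome. Differences within mice were tested with two-sided exact sign-flip permutation tests and the library series with an exact permutation of labels. No correction for multiple tests was applied to these 4 tests, none of which could pass 0.05.

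Members, gene lists and tests were chosen with earlier results of these data known. Named genes, with chromosome 18 left out, were the 8 highest dense autosomal promoters with at least 10 CpGs, the 5 lowest sparse promoters, the 5 with the largest SD and at least 10 CpGs, the 5 unmethylated ones with the most CpGs, all imprinted, germline and X-escape genes with a value, and the 2 highest and 2 lowest of other lists. Lists include noncoding genes, and some named members are not reported here. Alternatives were other choices of CpGs, mice, windows, starts, limits and minimum numbers of CpGs. The code was tested on simulated data. Python 3.11.15 was used with numpy 2.4.6, pandas 2.3.3, scipy 1.17.1 and matplotlib 3.10.9.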

Additional observations from a re-analysis of the deposited data

Results flagged for a closer look

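Each value was set against the other mice by the gap of the highest or lowest mouse relative to the range of all 5. Of 61 quantities examined, 8 had a mouse whose gap exceeded the 95% critical value of Dixon's test for 5 samples, and chance gives about 1 in 20 for values that are spread evenly about their mean. That rate does not apply to this set, since several promoters lie at the 0% limit and others were included for their large spread. Methylation of the mitochondrial genome was 2.57% in mouse 3, against 0.344% to 0.949% in the others. The promoter of Mcts2 had 71.7% in mouse 5, against 27.6% to 37.3%, although mouse 4 had 62.4% over CpGs measured in at least 3 mice, and that of Kdm5c had 40.3% in mouse 4, against 0.714% to 2.98%. On the 51 CpGs of Kdm5c measured in at least 3 mice, mouse 4 had 16.8%, against at most 1.74% in the others. The remaining 5 were small shifts at unmethylated promoters. In mouse 2, Dpp7 had 4.17% against 0% in all others, Rnf112 had 4.59% against at most 0.149%, Kdm6a had 2.14% against at most 0.472% and Zdbf2 had 5.82% against at most 1.63%. Over CpGs measured in at least 3 mice, Kdm6a had 1.67% in mouse 2 and 1.73% in mouse 3, and Zdbf2 had 2.82% and 1.80%. In mouse 4, Ndrg4 had 2.00% against at most 0.417%.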

How the results depend on the processing

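No paired analysis was possible because the only comparison between mice, that of the library series, shares no replicate numbers, and the tests of features and chromosomes already compare values within a mouse. The order promoter, exon, intron, intergenic held under every alternative. Under the 11 alternatives in which differences were recomputed, which leave out those that redefine promoters, the difference between promoters and intergenic CpGs ranged from -55.1 to -35.9 points and that between exons and introns from -6.27 to -1.57 points. The difference between X-linked and autosomal dense promoters stayed between 24.0 and 26.3 points, and that between library series between 1.94 and 2.57 points. In 0 of these was the direction reversed, and with 2 to 5 mice none could pass 0.05. The levels depended on which CpGs were kept, on the starts used and on the class limits. Over CpGs measured in at least 3 mice, promoters had 6.60%, exons 46.4%, introns 52.7% and intergenic CpGs 59.4%, with 61.6% of CpGs unmethylated, 16.8% intermediate and 21.6% methylated, and 11422, 639 and 147 genes in these classes. Over CpGs measured in all mice of the table, the levels were 5.42%, 31.1%, 32.6% and 41.4% and the shares 71.7%, 16.7% and 11.6%. Library series 27 alone gave 6.98%, 46.6%, 52.3% and 59.1% with shares of 58.3%, 17.8% and 24.0%, and series 37 alone 7.74% in promoters and 51.3% in exons, with shares of 55.1%, 18.4% and 26.5%. Both use more CpGs than were measured in all 5 mice. Averaging the strands gave 50.4% unmethylated CpGs. Autosomes alone gave 52.2% unmethylated CpGs and 8.15% in promoters. With promoters of 500 bases, levels were 7.31%, 44.5%, 48.7% and 60.1%, and with starts of protein-coding transcripts 5.14% in promoters and 49.5% in exons. Limits of 10% and 90% gave shares of 45.5%, 33.7% and 20.8% and 533 intermediate genes. With at least 3 CpGs 549 genes were intermediate and 136 methylated, with at least 10 CpGs 4076 were unmethylated, 104 intermediate and 9 methylated, and with a window of 500 bases 168 were intermediate and 29 methylated. Starts of all protein-coding transcripts raised the lowest bin of the profile to 3.36% and the flank to 41.9%.

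Leaving out each mouse in turn gave 7.92% to 8.78% in promoters, 49.9% to 52.8% in exons, 54.7% to 56.7% in introns and 61.0% to 62.7% in intergenic DNA. It gave 51.2% to 54.3% unmethylated, 18.99% to 19.96% intermediate and 26.6% to 28.8% methylated CpGs, 50 to 77 methylated genes (77 without mouse 1), 2.84% to 3.04% in the lowest bin and 35.4% to 38.1% in the flank. Without mouse 4 the mean of Kdm5c was 1.15%. The number of reads behind a value is unknown, which limits single CpGs and genes with few CpGs most.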

Other observations

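Among the CpGs listed on the Y chromosome in these female mice, 36 of 157 had a value in all 5 mice, with a mean methylation of 89.1%. For 158 microRNA genes with a value, the CpGs within 1000 bases of the annotated start were unmethylated on average at 75.3% of genes and methylated at 10.1%. Whether transcription begins at these annotated starts was not checked. Among dense autosomal promoters of the intermediate class, which were examined after the values were seen, were Stag3, which encodes a cohesin subunit of meiosis, with 45.7%, 56.9%, 57.2%, 55.6% and 56.0% in mice 1 to 5, Rpl35, a ribosomal protein gene, with 44.2% to 58.1%, and Ppp1r36, which averaged 40.1% ± 1.98 (SD, n = 5) on 5 CpGs. Whether the single CpGs of these promoters were themselves intermediate was not examined. Parp12, an ADP-ribosyltransferase gene, had 59.3% to 66.4% in library series 27 and 81.1% and 84.9% in series 37.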
